A study of Mus musculus with 15 samples.

Results

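The genes described here are 7 genes of cardiac impulse formation and spread. They are the connexin genes Gja1, Gja5 and Gjc1, the pacemaker channel genes Hcn2 and Hcn4, the T-type calcium channel gene Cacna1g and the transcription factor gene Tbx3. They were chosen by name, and each was found on the array through the RefSeq accession printed for its probe. The 7 genes had 11 of the 41174 non-control probes, among 18350 named genes. No gene of a voltage-gated sodium channel is among the 7, and sodium channel subunits are given further on only as part of the wider pathway.

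The heartbeat starts in the sinoatrial node, where HCN channels carry an inward current on hyperpolarization and T-type calcium channels add to the slow depolarization that follows. The impulse then passes from cell to cell through gap junctions made of connexins. Gja1 encodes connexin 43, the main connexin of working ventricular muscle, Gja5 encodes connexin 40 of the atria, the Purkinje system and arterial endothelium, and Gjc1 encodes connexin 45 of the nodes. Tbx3 represses the working-muscle program in the nodes. Nodes and Purkinje fibers are a small part of a heart, so in homogenized heart RNA fewer cells of a type and less RNA per cell cannot be told apart.

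Hearts of C57BL/6 mice, young adults at the first injection, were compared after 5 months of weekly intraperitoneal methamphetamine hydrochloride (meth), with weekly steps of 2 mg that ended at 40 mg/kg after 20 weeks, or of phosphate-buffered saline (PBS) on the same schedule. Each of the 15 samples was hybridized alone to a Cy3-labeled Agilent mouse array. There were 4 male meth, 4 male PBS, 4 female meth and 3 female PBS arrays. Males came from 2 separate trials, with 2 meth and 2 PBS arrays in each, and females from 1 trial by their titles, although another label field placed 3 of the female arrays (meth 3 and 4, PBS 3) in the second trial. Male values below are listed as trial 1 replicates 1 and 2, then trial 2 replicates 1 and 2, and female values by replicate number. The labels do not tie each sample to a separate animal, so the p-values measure the spread between these samples. The paper reports early deaths only among meth-treated males, and names dysrhythmia as a possible cause. The male meth hearts may therefore be those of survivors, which the labels do not state. Any effect of such a selection on the male values, or on the differences between the sexes, was not tested.

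All values are normalized log2 signals, the log2 signal of a probe minus the 75th percentile of its array. A value of 0 therefore lies at that percentile, and levels of different probes are not compared. The arrays lay on 4 slides. Every group had 1 array on slide 1 and 1 on slide 2, the 4 trial 2 males shared slide 3, and female PBS replicate 3 shared slide 4 with female meth replicates 3 and 4. Slide 4 was brighter, with a 75th percentile of 438 to 589 against 307 to 403 elsewhere, no spot was saturated, and arrays of a group correlated at 0.983 to 0.995. Airway secretory and epithelial genes were present in some hearts: 8 of 9 tested airway markers passed the limma test as higher in male meth than in male PBS, with the list's mean level between -0.29 and 1.64 against -4.83 and -4.61, and 1 of 9 passed as higher in females. Their part in the results below was not tested.

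In neither sex did any of the 7 genes pass the test for a difference between meth and PBS. With limma across all 28358 probes tested and Benjamini-Hochberg adjustment, 0 of 7 passed in males, where 1.11% of all probes did, and 0 of 7 in females, where 0.758% did. The unadjusted p was under 0.05 for 2 of 7 in males, Gja1 and Cacna1g, against 12.8% of all probes, and for 0 of 7 in females, against 11%. The methods' t-test gave 3 of 7 in males with arrays paired by number, against 15.2% of all probes, and 2 of 7 without pairing, against 13.3%. In females it gave 0 of 7 in either form, against 9.93% and 8.29%, and in either sex 0 of 7 after adjustment. The median absolute log2 fold change of the 7 genes was 0.12 in males, close to the 0.12 of all probes tested, and 0.11 in females, where all probes also gave 0.11. Intervals were narrow for Gja1 and Cacna1g and wide for Gja5, Hcn2 and Hcn4, so changes of differing size could have gone unseen. The fit used 1 spread per probe over both sexes, so the male intervals also carry the spread of the female arrays.

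**Figure D1:**
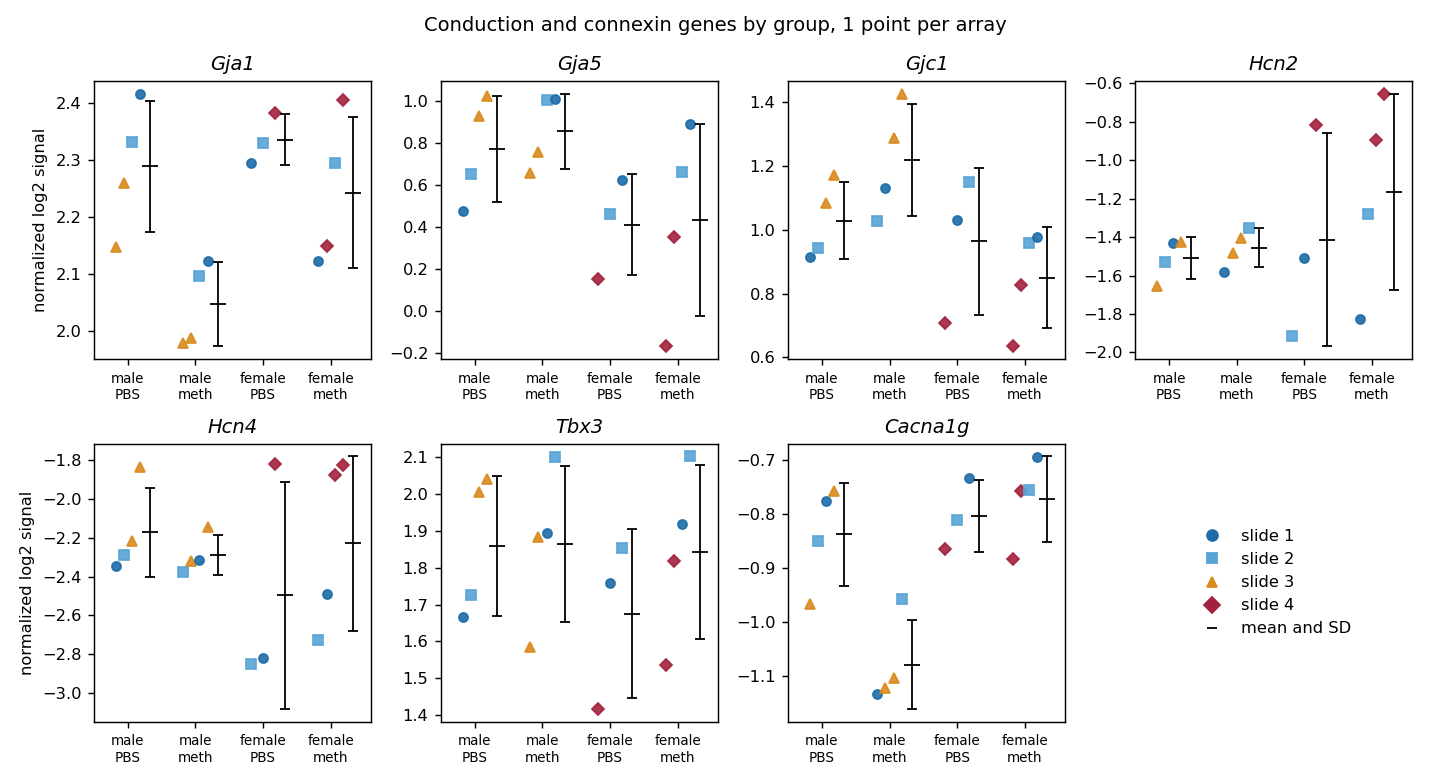
Normalized log2 signal (vertical axis, its own scale in each panel) of the 7 genes in the 4 groups (horizontal axis), 1 point per array, with color and shape giving the slide and bars the group mean and SD. For Gja1 the 4 male meth arrays sit at 1.98 to 2.12, all under the male PBS arrays at 2.15 to 2.42, while for Hcn2 and Hcn4 the slide 4 arrays stand above the other female arrays.

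By main probes, Gja1 was the only one of the 7 genes whose meth and PBS arrays did not overlap in males. In male meth hearts its normalized log2 signal was 2.12, 2.10, 1.99 and 1.98, and in male PBS hearts 2.42, 2.33, 2.26 and 2.15. The highest meth value was lower than the lowest PBS value, as for 5.17% of all probes. The fitted log2 fold change was -0.24 (SE 0.071), a level 0.846 times that of PBS (95% confidence interval 0.760 to 0.942), with an unadjusted p of 0.00517 and an adjusted p of 0.162 by limma. The exact permutation test gave p = 0.0286, the smallest that 4 against 4 arrays can give.

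In female meth hearts Gja1 was 2.12, 2.29, 2.41 and 2.15, and in female PBS hearts 2.29, 2.33 and 2.38. These groups overlapped, with 3 meth arrays below all the PBS arrays (1 of them barely) and 1 above them. The female log2 fold change was -0.093 (SE 0.077; limma adjusted p = 0.753), and over both sexes it was -0.17 (SE 0.052; limma adjusted p = 0.126; exact permutation p = 0.0114). Ordered by mean, Gja1 was highest in female PBS hearts (2.34 ± 0.045, SD, n = 3), then male PBS (2.29 ± 0.11, n = 4), female meth (2.24 ± 0.13, n = 4) and male meth (2.05 ± 0.074, n = 4). Neighbours in this order overlapped, male and female meth by a single pair of arrays, while male meth lay apart from both PBS groups.

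The Gja1 difference had the same sign on every slide. Slides 1 and 2 compare 1 meth with 1 PBS array in each sex. The share of all probes with 1 sign on every slide was not computed, for this gene or the others. In males, meth minus PBS within a slide was -0.29 on slide 1, -0.23 on slide 2 and -0.22 on slide 3. In females it was -0.17, -0.035 and -0.11 on slides 1, 2 and 4. The Gja1 probe was printed as 10 spots on each array, whose SD within an array was 0.038 to 0.078, so the male difference was several times larger than the spot-to-spot error of one array. The within-array error does not cover differences between hearts.

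**Figure D2:**
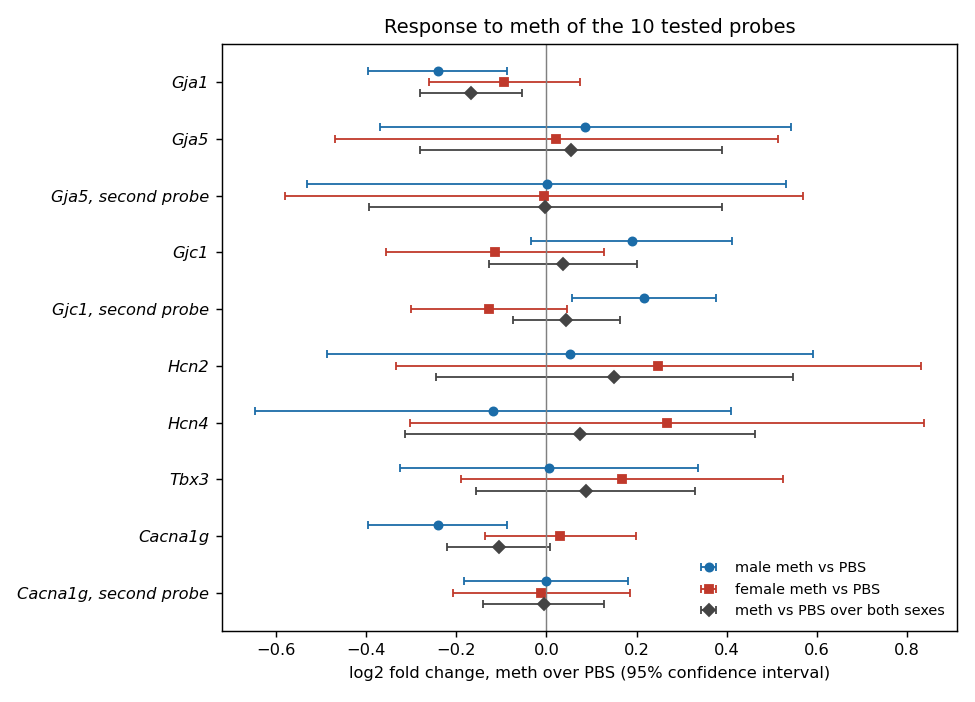
Fitted log2 fold change of meth over PBS (horizontal axis) with 95% confidence intervals for the 10 tested probes of the 7 genes, in males, in females and as the mean of both. The male intervals of Gja1, of the main Cacna1g probe and of the second Gjc1 probe exclude 0 before adjustment, and none passed after it.

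The Gja1 meth mean was below the PBS mean in each sex on every slide, a pattern whose share among all probes was not computed. The 250 bases before the Gja1 transcription start are shown from RefSeq (GRCm38.p6, chr10:56377050-56377299, plus strand). Capitals mark the only match to a searched motif, TGACTCA, the sequence bound by AP-1 factors such as Fos and Jun, which lies on the minus strand and starts 19 bases before the start.
Gja1: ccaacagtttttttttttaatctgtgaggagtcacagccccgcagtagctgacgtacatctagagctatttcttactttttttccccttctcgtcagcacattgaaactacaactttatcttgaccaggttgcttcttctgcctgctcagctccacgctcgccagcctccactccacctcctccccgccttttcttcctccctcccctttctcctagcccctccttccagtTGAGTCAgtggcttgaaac
Both strands of the 32851 upstream regions given were searched for 3 motifs, TGACTCA (in 4.46% of regions), the T-box motif GGTGTGA (3.33%) and the E-box CACGTG (6.02%). Regions were given for 4 of the 7 genes, Gja1, Gja5, Hcn2 and Hcn4, and the other 3 regions held none of these letters. A match in a sequence is no evidence of binding in these hearts.

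Gja5, the connexin of atria, Purkinje fibers and arteries, showed no difference in either sex, with a wide spread. Its main probe read 1.01, 1.01, 0.66 and 0.76 in male meth hearts and 0.48, 0.65, 1.03 and 0.93 in male PBS hearts. Both trial 1 meth arrays were above both trial 1 PBS arrays, and both trial 2 meth arrays were below both trial 2 PBS arrays. Groups of 2 arrays often separate by chance, and the share of all probes that did so was not computed. In females it was 0.89, 0.66, -0.17 and 0.35 with meth and 0.63, 0.46 and 0.15 with PBS, and the groups overlapped. The log2 fold change was 0.087 (95% interval -0.37 to 0.54) in males and 0.022 (-0.47 to 0.51) in females. The male trial 1 response was 0.44 and the trial 2 response -0.27, and they differed by -0.71 (SE 0.38; unadjusted p = 0.0881; limma adjusted p over 0.999). The second Gja5 probe, dimmer, ranged from -4.11 to -2.94, hardly followed the first over the 15 arrays (r = 0.063), and gave a male log2 fold change of 0.0010 (SE 0.24).

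Gjc1, the nodal connexin, had higher values in male meth arrays and did not pass the test. Its main probe read 1.13, 1.03, 1.43 and 1.29 in male meth hearts against 0.92, 0.94, 1.08 and 1.17 in male PBS hearts, and the groups overlapped. The second Gjc1 probe read 0.34, 0.21, 0.48 and 0.30 with meth and 0.16, 0.083, 0.075 and 0.16 with PBS, so that the lowest meth value was higher than the highest PBS value, as for 4.68% of all probes. The probes gave log2 fold changes of 0.19 (SE 0.10; limma adjusted p = 0.481; exact permutation p = 0.143) and 0.22 (SE 0.074; limma adjusted p = 0.230; exact permutation p = 0.0286), and they rose and fell together over the arrays (r = 0.80).

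In females the Gjc1 fold change was negative on both probes, and it did not pass either. The main probe read 0.98, 0.96, 0.83 and 0.63 with meth and 1.03, 1.15 and 0.71 with PBS, with overlap, and its log2 fold change was -0.11 (SE 0.11; limma adjusted p = 0.806). The second probe gave -0.13 (SE 0.080; limma adjusted p = 0.630). The male response minus the female response was 0.30 on the main probe (SE 0.15; limma adjusted p = 0.609) and 0.34 on the second (SE 0.11; unadjusted p = 0.00802; limma adjusted p = 0.432), so neither passed.

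Cacna1g, which encodes the Cav3.1 T-type calcium channel of pacemaker and conducting cells, had lower values in male meth hearts on its main probe only, and did not pass the test. That probe read -1.13, -0.96, -1.10 and -1.12 with meth and -0.78, -0.85, -0.76 and -0.97 with PBS in males. The groups met at a single pair of arrays, where the highest meth value of -0.957 was just above the lowest PBS value of -0.967. The log2 fold change was -0.24 (SE 0.071), or 0.846 times the PBS level (95% interval 0.760 to 0.942), with an unadjusted p of 0.00525, a limma adjusted p of 0.164 and an exact permutation p of 0.0571. Within slides the male difference was -0.36, -0.11 and -0.25.

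In females the main Cacna1g probe was level between groups, at -0.69, -0.76, -0.88 and -0.76 with meth and -0.73, -0.81 and -0.87 with PBS. The female log2 fold change was 0.031 (95% interval -0.14 to 0.20). The sexes differed in response by -0.27 (SE 0.10; unadjusted p = 0.0232; limma adjusted p = 0.532), the only one of the 7 main probes with an unadjusted p under 0.05 for this difference, which 8.67% of all probes had and which passed adjustment for 0.138%.

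The second Cacna1g probe did not share the male difference. It read -2.56, -2.39, -2.34 and -2.35 in male meth hearts and -2.44, -2.43, -2.36 and -2.40 in male PBS hearts, with full overlap and a log2 fold change of -0.00058 (95% interval -0.18 to 0.18). The difference between the readings of the main and second probes was 1.23 to 1.43 in male meth arrays and 1.43 to 1.67 in male PBS arrays, so the male responses of the probes differed by -0.24 (exact permutation p = 0.0286, the smallest possible). Over the 15 arrays the probes correlated at -0.25. The male Cacna1g value therefore rests on a single probe.

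**Figure D3:**
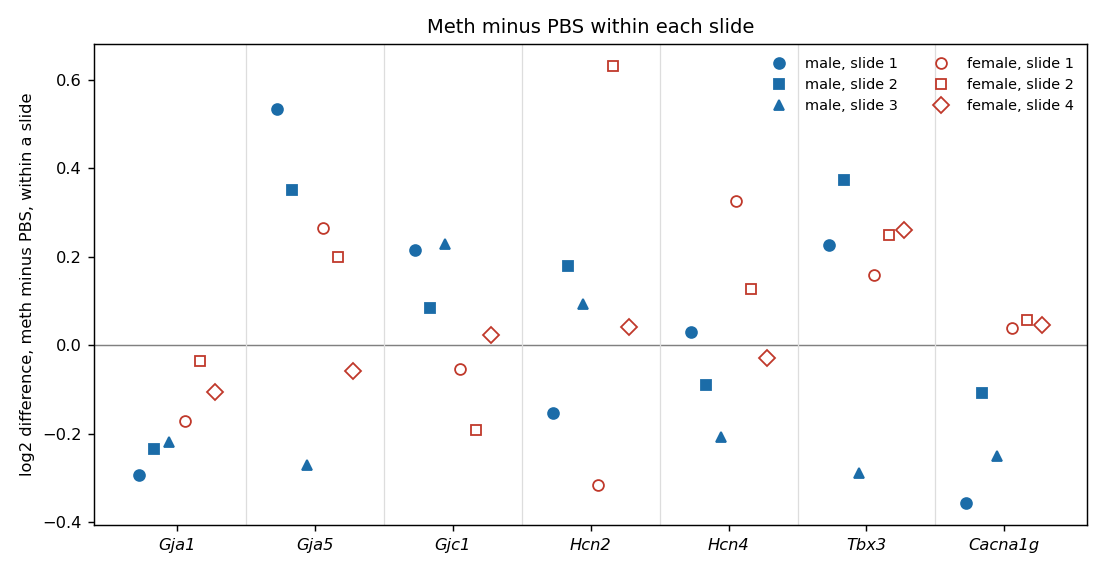
Log2 difference of meth minus PBS within a slide (vertical axis) for each gene's main probe, with filled points for males and open points for females. Gja1 lies below 0 in all 6 slide and sex combinations, from -0.29 to -0.035. Cacna1g lies below 0 in the 3 male and above 0 in the 3 female ones. Gja5, Hcn2, Hcn4 and Tbx3 change sign between the male slides.

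Hcn4 encodes the main pacemaker channel of the sinoatrial node, and Hcn2 a second HCN channel found also in atrial and ventricular muscle. Neither differed between meth and PBS beyond the spread of arrays. Hcn2 was -1.58, -1.35, -1.49 and -1.40 in male meth hearts and -1.43, -1.53, -1.42 and -1.65 in male PBS hearts, and Hcn4 was -2.31, -2.38, -2.32 and -2.14 against -2.34, -2.29, -1.84 and -2.22. Groups overlapped for both genes. The male log2 fold changes were 0.053 for Hcn2 (95% interval -0.49 to 0.59) and -0.12 for Hcn4 (-0.65 to 0.41). These intervals rest on 1 spread per probe over all 15 arrays, and the female arrays spread more. For Hcn2 the SD was 0.10 in male meth and 0.11 in male PBS arrays, against 0.51 and 0.56 in females. For Hcn4 it was 0.10 and 0.23 against 0.45 and 0.59.

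In females the HCN genes separated by slide more than by treatment. Hcn2 read -1.83, -1.28, -0.66 and -0.89 with meth and -1.51, -1.91 and -0.82 with PBS. Hcn4 read -2.49, -2.73, -1.87 and -1.82 with meth and -2.82, -2.85 and -1.82 with PBS. For both genes the 3 slide 4 arrays, of meth and PBS alike, stood above the 4 female arrays of slides 1 and 2.

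The mean of the 3 slide 4 arrays exceeded that of the 4 other female arrays by 0.84 for Hcn2 and 0.88 for Hcn4, more than for 96.0% and 96.3% of all probes tested, whose median was 0.015. Female meth minus PBS within slides was -0.32, 0.63 and 0.041 for Hcn2 and 0.33, 0.13 and -0.030 for Hcn4. The female log2 fold changes were 0.25 (SE 0.27; limma adjusted p = 0.833) and 0.27 (SE 0.26; limma adjusted p = 0.808). The 3 female arrays of slide 4 are also those that 1 label field places in the second trial, so slide, scan session and possibly trial cannot be told apart. A second Hcn4 probe was well above background on 2 of 15 arrays, both on slide 4, and was not tested.

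Tbx3, which maintains nodal identity, was 1.89, 2.10, 1.58 and 1.88 in male meth hearts and 1.67, 1.73, 2.04 and 2.01 in male PBS hearts. As with Gja5, the meth mean was above the PBS mean in trial 1 and below it in trial 2, at 2 arrays a group. The male mean difference was 0.0063 (95% interval -0.32 to 0.34). The response was 0.30 in trial 1 and -0.29 in trial 2, differing by -0.59 (SE 0.27; unadjusted p = 0.0476; limma adjusted p over 0.999). For that difference 1 of 7 genes had an unadjusted p under 0.05, against 4.56% of all probes, and 0 of 7 genes and 0% of probes passed adjustment.

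In females Tbx3 was 1.92, 2.10, 1.82 and 1.54 with meth and 1.76, 1.85 and 1.42 with PBS. The groups overlapped, although meth was above PBS within each slide, by 0.16, 0.25 and 0.26. The female log2 fold change was 0.17 (SE 0.16; limma adjusted p = 0.808).

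None of the 7 genes differed between male and female PBS hearts by limma, where 0.48% of all probes did, and 0 of 7 had an unadjusted p under 0.05, against 15.2% of probes. The largest value was 0.33 for Gja5 (males over females; 95% interval -0.21 to 0.87), and the smallest was -0.0047 for Cacna1g (-0.19 to 0.18). For Gja5, male PBS arrays read 0.48 and 0.65 on slides 1 and 2, and 1.03 and 0.93 on slide 3. Female PBS arrays read 0.63 and 0.46 on slides 1 and 2, and 0.15 on slide 4. The highest and the lowest of these lay on slides that hold a single sex. Over both sexes 0 of 7 genes passed for meth against PBS, where 2.65% of probes did, and 1 of 7, Gja1, had an unadjusted p under 0.05, against 15.3%.

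Across the 15 arrays the genes fell into loose pairs, given as a description since arrays share slides and groups. Hcn2 and Hcn4 correlated at r = 0.69, and at 0.79 with group means removed. Gja5 and Tbx3 correlated at 0.61 (0.63 with group means removed), and Gja5 and Hcn2 at -0.70 (-0.72). Gja1 and Cacna1g correlated at 0.61, and at -0.043 once group means were removed.

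**Figure D4:**
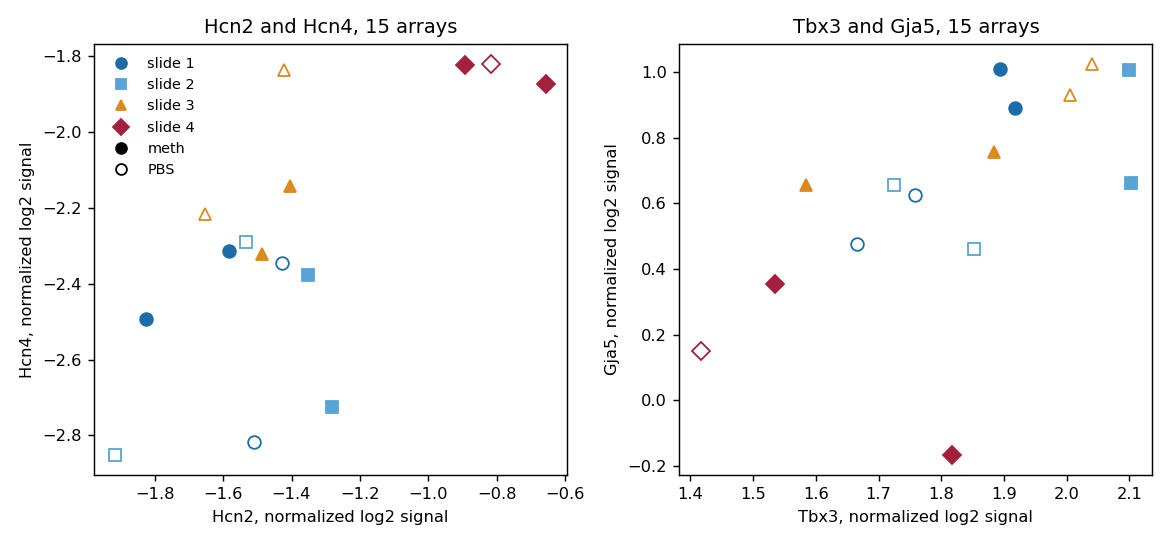
Normalized log2 signal of Hcn4 against Hcn2 (left) and of Gja5 against Tbx3 (right) in the 15 arrays, with color and shape giving the slide and filled points meth. Hcn2 and Hcn4 are both high on the 3 slide 4 arrays, and Gja5 is lowest on those same arrays, at -0.17 to 0.35.

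Among 12600 genes measured on all arrays, the genes whose pattern over the 15 arrays was most like that of Gja1 were Zbtb17 (r = 0.90), Col5a3 (0.89) and Ado (0.88). Those most like Gja5 were Olfm1 (0.93), Psd3 (0.92) and Mdfi (0.90), and those most like Gjc1 were Garre1 (0.96), Unc5b (0.91) and Zfp217 (0.91). For Hcn2 they included Vars (0.97) and Ctf2 (0.96), and for Hcn4 Dhrs11 (0.91), Parp3 (0.91) and Fam120a (0.90). Tbx3 was closest to Dab2ip (0.88), Cd164 (0.87) and Rad21 (0.86), and Cacna1g to Thoc2 (0.87), Alkbh4 (0.87) and Has2 (0.85). None of the neighbours named here is a conduction gene of the lists below. These are the highest of 12600 correlations for each gene, with slide and group differences left in, so they too are only a description.

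The wider pathway was read from 6 lists, with 81 genes reported here, of which 79 were on the array and 64 were tested. None passed in males or in females, and 7 of 64 in each sex had an unadjusted p under 0.05, no more than the 12.8% of all probes in males and 11% in females. Over both sexes 1 of 64 passed, higher with meth, beside 2.65% of all probes. That gene entered the test only through its meth arrays, so its call is not read as a change of the pathway. The median absolute log2 fold change of the 64 genes over both sexes was 0.095, against 0.083 for all probes.

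The gene that passed was Vsnl1, a calcium sensor gene enriched in the sinoatrial node and 1 of 9 tested node and Purkinje markers. It read -4.95, -4.85, -4.83 and -4.88 in male meth hearts and -7.27, -5.19, -5.85 and -5.64 in male PBS hearts. In females it read -5.81, -5.21, -4.80 and -4.97 with meth and -7.21, -5.96 and -6.29 with PBS. In males all meth values were above all PBS values, as for 4.68% of all probes. However, none of the 7 PBS arrays had the probe well above background, whereas 4 of 4 male and 2 of 4 female meth arrays did. It thus entered the test only through the meth groups, where it is high. The fitted log2 fold change, set against PBS readings at background, was 1.20 over both sexes (SE 0.29; limma adjusted p = 0.0479), and with arrays paired by replicate number it was 1.16 and did not pass (adjusted p = 0.0596).

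Male PBS readings of Vsnl1 below the lowest well-above-background signal of their array were raised to that signal. The male meth mean was then 1.08-fold higher than the PBS mean, a difference given without an error. No such value is given for females, where only some meth arrays measured it. With low signals set to a floor the value was 0.058 (limma adjusted p = 0.516). Leaving out any of 12 of the 15 arrays ended the call, with adjusted p between 0.0202 and 0.124 over all such fits.

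None of the genes reported here from the other 5 lists passed. Of 6 tested other connexins the values over both sexes farthest from 0 were 0.14 for Gjb5 and -0.13 for Gjd3. Among 16 intercalated disc partners they were -0.30 for Cxadr, the coxsackievirus and adenovirus receptor of the disc (limma adjusted p = 0.0898), and -0.18 for Jup, plakoglobin. The sexes were of opposite sign for Jup, at 0.061 in males and -0.43 in females. Among 9 pacemaker and nodal channels and partners the values farthest from 0 over both sexes were 0.22 for the L-type calcium channel gene Cacna1d and 0.21 for the G protein regulator gene Rgs6. For 10 sodium channel subunits and partners they were 0.32 for Fgf12 and 0.21 for the beta subunit Scn2b, and for 14 conduction transcription factors 0.41 for Shox2, well above background on 3 arrays, and 0.18 for Etv1 (limma adjusted p = 0.0879).

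**Figure D5:**
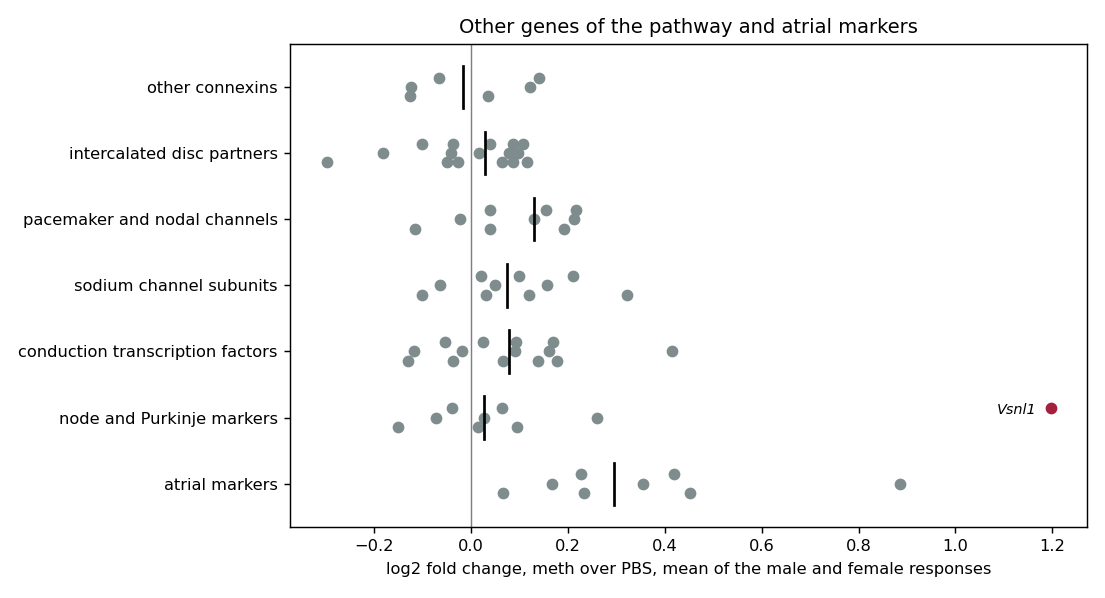
Log2 fold change of meth over PBS, as the mean of the male and female responses (horizontal axis), for each tested gene of the 6 pathway lists and the atrial markers, with black lines at the list medians. The red point, Vsnl1 at 1.20, passed the adjusted threshold, and its fitted value is set against PBS arrays that were not well above background.

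Markers of heart regions and other cells were set beside the 7 genes. All 8 tested atrial markers were higher with meth in each sex, with a median of 0.21 in males and 0.35 in females, and none passed. Their mean level was 4.36 to 4.75 in male meth and 3.84 to 4.52 in male PBS arrays, and 3.95 to 4.39 in female meth and 3.47 to 3.92 in female PBS arrays. The part of the atrial markers in the values of Gja5, Gjc1 and Tbx3 was not tested. The 5 tested neuron and ganglion markers had like medians, 0.21 in males (4 of 5 higher) and 0.35 in females (5 of 5 higher). The share of all probes higher with meth in both sexes was not computed. Of 5 ventricular, 12 endothelial and arterial, 5 smooth muscle, 6 fibroblast, 5 neuron and ganglion and 8 cardiomyocyte markers none passed in either sex, and cardiomyocyte markers, at a mean level of 7.14 to 7.78, were high on every array.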

How the data were processed

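RNA of 15 heart samples was measured on 1-color Agilent 4x44K arrays. The authors extracted spot intensity with Agilent Feature Extraction, version 9.1 per the labels and 10.5.1.1 per the file headers, and the background-corrected processed signal of each deposited file was used. The deposited log2 table of the same arrays equaled the log2 of that signal plus a constant per array for 100% of values, within 0.01, and served as an alternative. Control probes and outlier spots were removed, spots of a probe were averaged, and each array's 75th percentile was subtracted. A probe was tested if at least 3 of 15 arrays had it well above background (28358 of 41174). On a given array 61.4% to 71.4% of probes passed that mark. For genes with several probes the one with the highest mean signal was the main probe.

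One limma model (limma 3.58.1, R 4.3.3) held the 4 groups and the trial, with two-sided tests and Benjamini-Hochberg adjustment over all probes at 0.05. Single values were tested by exact permutation over arrays, within each sex for both sexes together. The tests were run on simulated data with independent noise and no slide effect, so that check does not cover deviations that arrays of a slide share. Same-numbered meth and PBS arrays shared a slide in both sexes. Their deviations from group means went together in females (r = 0.25, 0.39 and 0.62). In males, with means taken within a trial, they did not (r = -0.040 in trial 1 and 0.010 in trial 2). The female means span slides 1, 2 and 4, so the female correlations include differences between those slides. Alternatives varied scaling, background correction, filter, covariates, slide and session blocks, pairing, arrays, probe and test.

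The genes and lists were chosen with earlier results of these data known. The genes named are the 7 genes, list genes past the threshold or else the 2 farthest from 0 over both sexes, and the genes most correlated with each of the 7. Upstream sequences came from RefSeq (GRCm38.p6), while the array headers name mm9. Some genes are not reported here and were left out of the list counts, with their values still in the fit across all probes.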

Additional observations from a re-analysis of the deposited data

Results flagged for a closer look

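The main Cacna1g probe in male meth hearts had 1 array apart from the others of its group. Trial 1 replicate 2 read -0.957, above the other 3 arrays at -1.13 to -1.10, and it is the array that overlaps the male PBS range. It was 1 of 21 groups of arrays tested in this way, and chance gives about 1 in 20.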

How the results depend on the processing

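The number of the 7 genes that passed was 0 under all 157 alternative values computed over the 6 comparisons. With the replicate block, which pairs arrays by number, it was also 0, with Gja1 at -0.24 in males (limma adjusted p = 0.124), -0.062 in females (0.690) and -0.15 over both sexes (0.131). The block ended the call of Vsnl1 (1.16; adjusted p = 0.0596) and changed no other call reported here. The male Gja1 value was -0.27 to -0.20 over 26 alternatives, with adjusted p from 0.0744 to 0.749, and that of Cacna1g was -0.28 to -0.12.

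Signs turned for 24 of 613 alternative values of single genes, and none of these had passed. A shift by the median gave -0.027 for male Tbx3 and -0.032 for the second Gja5 probe in males, quantile normalization gave -0.038 for that probe, and normexp background correction (on the median pixel signal) gave -0.020 for it, -0.0013 for male Hcn2 and 0.018 for the second Cacna1g probe in males, for which the deposited table gave 0.00053. Leaving out each array in turn gave ranges across 0 for Tbx3 (-0.094 to 0.13), Gja5 (-0.020 to 0.18), its second probe (-0.21 to 0.13), Hcn2 (-0.00061 to 0.11) and the second Cacna1g probe (-0.027 to 0.041) in males, and for Gja5 (-0.13 to 0.22), Hcn2 (-0.0021 to 0.55) and Cacna1g (-0.00036 to 0.068) in females. The causes were not tested.

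Vsnl1 kept its call over both sexes in 10 of 29 alternatives (0.058 to 1.38). The median shift moved the median of all probes for the difference between the sexes from -0.015 to -0.12. The number of arrays limits the precision of all these values.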
